A study of Mus musculus with 12 samples.

Results

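White adipose tissue of CLA-fed mice was followed from 12 to 24 h: the 2 CLA pools of 24 h were set against the 2 CLA pools of 12 h, which together make 4 of the 12 arrays of the study, across all genes measured. Each pool was RP white fat of 5 mice, so 20 animals stood behind these 4 arrays. Control mice were fed LA and gave 2 pools at each of the same hours, and these LA pools served as the reference for changes with the time of day. The remaining 4 arrays, of 4 h, entered only the estimate of the spread between pools, the filter on dim probe sets and the choice of the brightest probe set of a gene. In this field CLA commonly stands for conjugated linoleic acid and LA for linoleic acid, but the labels spell out neither of them nor RP, and strain, sex, age and the event from which the hours were counted are not given in the sources used here. Pooling hides the spread between single animals, so every error below is a spread between pools.

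White fat makes fatty acids from glucose and acetate, joins them into triglyceride, and breaks triglyceride down again when other tissues need fuel. It also secretes hormones such as leptin and adiponectin, and it holds macrophages, vessels and fibroblasts beside the adipocytes. Stressed or dying adipocytes are known to release chemokines, which are secreted proteins that call in blood leukocytes.

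Values below are scaled intensities, with every array brought to a trimmed mean of 500 and values below 0 then set to 0. Changes are differences of log2(scaled intensity + 16), given as 24 h minus 12 h with the standard error of the fit. A value under 100 was treated as dim, and where both pools of a group were dim the fold is a lower bound computed against 100. Of 12627 genes tested with limma, 628 were higher at 24 h in the CLA pools, which is 4.97% of all, and 590 were lower, which is 4.67%, at an adjusted p below 0.05. Of these, 404 rose and 305 fell by more than 2-fold. Both CLA pools of one time lay beyond both of the other, in either direction, for 7690 of the 12627 genes. Counts of such separation within a list are to be read against that number. The LA pools gave 1 gene higher and 1 lower over the same interval, 0.00792% of genes each, although 1298 genes had an unadjusted p below 0.05 there against 3280 in CLA. The higher gene was Scarf1 and the lower Pgr, both outside the rule for genes to be named and singled out after their values were seen. The 628 genes that rose had a median log2 change of 1.19 in CLA and -0.03 in LA, and 291 of them (46.3%) changed in the same direction in LA, against 47.6% of all genes. For the 590 that fell the medians were -1.02 and -0.01, and 300 (50.8%) shared their direction in LA.

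**Figure D1:**
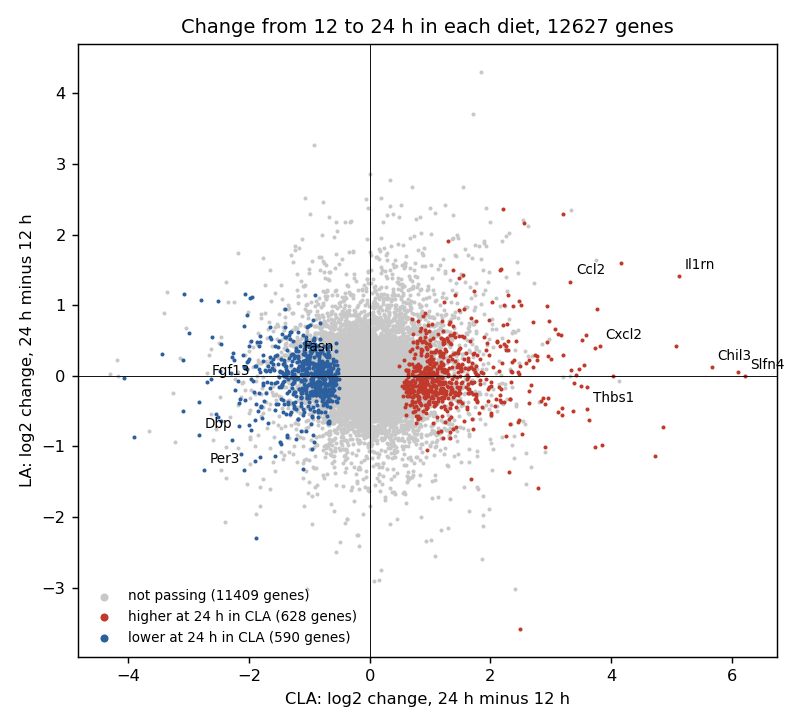
Each point is 1 of the 12627 genes, with its log2 change from 12 to 24 h in the CLA pools on the horizontal axis and in the LA pools on the vertical axis (2 pools per diet and time). Red and blue points passed in CLA (628 and 590 genes) and spread along the horizontal axis, with LA changes on both sides of 0.

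Several whole-array measures moved with the comparison, and their part in the results was not tested unless a value is given. Signal of the 3′ probe set of Actb over that of its 5′ probe set, a quotient that rises as RNA is degraded, was 4.24 and 6.10 in the CLA 12 h pools and 3.25 and 4.13 in the CLA 24 h pools. The LA pools ran from 3.80 to 6.41 at 12 h and from 2.65 to 4.07 at 24 h. With that ratio as a covariate, 589 genes rose and 511 fell. The summed level of 10 skeletal muscle markers was 6939 and 4717 in the CLA 12 h pools, 1618 and 1619 in the CLA 24 h pools, and between 1074 and 2534 in the LA pools. Leaving out a single CLA array of 12 or 24 h left between 127 and 309 genes higher and between 125 and 248 lower, with the lowest counts without replicate 2 of CLA 24 h. Settings that ended the call of a gene named before the closing section are given beside it: the deposited values unscaled or quantile normalized, all probe sets tested with no filter, an offset of 4, averaged probe sets in place of the brightest one (named as the mean of probe sets), 8 arrays, another prior variance, and the Actb quotient as covariate. A replicate block in the limma fit also ended the calls of Ccl5, Acsf3, Arntl and Ighm (adjusted p = 0.0593, 0.0544, 0.0518 and 0.0549). A fit of the 4 CLA arrays alone, with fewer degrees of freedom, ended 126 of the 164 named calls. The tissue label matched its markers: adipocyte genes were among the brightest, with Adipoq at 78.5% of the brightest probe set.

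The chemokines showed some of the largest rises. Of 11 CXC chemokines tested, 6 rose, and of 12 CC chemokines 6 rose, that is 54.5% and 50% against the background of 4.97%. With single arrays left out the counts lay between 3 and 7 and between 4 and 7, lowest without replicate 2 of CLA 12 h or either CLA 24 h pool for the first and without replicate 2 of CLA 12 h or replicate 1 of CLA 24 h for the second. No member of either list fell, whether the adjusted or the unadjusted p of limma was used. Their median log2 changes were 1.54 and 2.79 in CLA, or 1.28 and 1.60 with dim groups set at 100, and 0.31 and 0.28 in LA. The neutrophil attractants Cxcl1, Cxcl2 and Cxcl3 are neighbours on chromosome 5, and the bases before their starts are shown here because these genes moved together and each window holds the kappa B motif, recognised by NF-kB and searched here as GGG, any 2 bases, and TTTCC. Capitals mark the motif on either strand, and each window is the 250 bases before the start, read 5′ to 3′ on the gene's strand from RefSeq's GRCm38.p6.
Cxcl3, chr5:90785851-90786100, plus strand: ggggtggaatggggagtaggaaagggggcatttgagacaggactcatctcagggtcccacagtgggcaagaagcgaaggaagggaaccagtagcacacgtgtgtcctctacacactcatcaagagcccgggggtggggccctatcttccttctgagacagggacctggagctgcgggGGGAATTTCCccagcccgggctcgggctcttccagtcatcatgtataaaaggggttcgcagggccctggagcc
Cxcl1, chr5:90890995-90891244, plus strand: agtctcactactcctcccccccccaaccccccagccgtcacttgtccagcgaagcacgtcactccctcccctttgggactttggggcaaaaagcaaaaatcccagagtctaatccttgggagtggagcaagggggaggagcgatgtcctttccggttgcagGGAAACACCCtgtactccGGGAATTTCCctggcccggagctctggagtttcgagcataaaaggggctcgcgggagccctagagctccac
Cxcl2, chr5:90903649-90903898, plus strand: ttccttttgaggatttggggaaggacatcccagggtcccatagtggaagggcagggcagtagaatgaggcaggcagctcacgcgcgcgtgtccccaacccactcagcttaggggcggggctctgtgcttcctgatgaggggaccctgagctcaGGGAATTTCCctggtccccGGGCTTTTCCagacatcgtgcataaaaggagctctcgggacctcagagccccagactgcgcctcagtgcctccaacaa
The motif, searched on both strands, was in 1.41% of all 32851 promoter windows of this length. Counted by gene, with any of its windows, it was in 171 of 10149 genes tested (1.685%). It was in 3 of the 8 CXC chemokines with a window, in 19 of 502 genes that rose (3.79%) and in 8 of 472 that fell (1.70%). These matches describe letters only.

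Cxcl2 read 161 and 188 in the 12 h pools and 2718 and 2588 in the 24 h pools. Both late pools lay far above both early ones, and the 4 LA pools stayed between 18.7 and 47. The log2 change was 3.81 ± 0.32 (adjusted p = 0.000932), or 14.0-fold. Cxcl3 read 24.5 and 36.9 in the 12 h pools and 1348 and 1326 in the 24 h pools, a rise of at least 11.7-fold with an adjusted p of 0.00302. Cxcl1 was already well above the LA pools at 12 h and rose again. It read 1004 and 1637 in the 12 h pools and 10188 and 10239 in the 24 h pools, with 101 to 224 in the LA pools and a log2 change of 2.98 ± 0.38 (adjusted p = 0.00445).

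Among the CC chemokines, Ccl2, the main attractant of monocytes, read 667 and 1039 in the 12 h pools and 8393 and 8619 in the 24 h pools. It rose 10.04-fold (log2 change 3.33 ± 0.26, adjusted p = 0.000837), and the groups did not overlap. Its LA pools also went from 164 and 191 to 594 and 373, a log2 change of 1.33 that did not pass (adjusted p = 0.299). Ccl7, a relative of Ccl2 with the same receptor, read 172 and 236 in the 12 h pools and 1520.5 and 1829 in the 24 h pools and changed by 2.95 ± 0.19 (adjusted p = 0.000310). Ccl9 and Ccl6, mouse chemokines made by myeloid cells, were bright already at 12 h. Ccl9 went from 3686 and 2527 to 15854 and 15482, and Ccl6 from 5596 and 4171 to 14749 and 14619, with log2 changes of 2.35 ± 0.21 (adjusted p = 0.00118) and 1.60 ± 0.17 (adjusted p = 0.00257). Ccl5, an attractant of T cells and monocytes, read 56.8 and 140.2 in the 12 h pools and 866 and 1957 in the 24 h pools and changed by 3.63 ± 0.90 (adjusted p = 0.0413). The T cell attractant Cxcl9 and the B cell attractant Cxcl13 rose by 1.31 ± 0.28 (adjusted p = 0.0273) and 1.28 ± 0.31 (adjusted p = 0.0403). Cxcl10, another interferon-induced chemokine, was at 1791 and 3236 and then 4169.5 and 5872, and its change of 1.03 did not pass (adjusted p = 0.207). Leaving out one array at a time took the adjusted p up to 0.212 for Ccl5, 0.157 for Cxcl9 and 0.183 for Cxcl13. Each of them missed the threshold in at least 1 of the fits without either LA 4 h pool, either CLA 12 h pool, either CLA 24 h pool, either LA 12 h pool or either LA 24 h pool. Other settings that took the adjusted p past 0.05 were no scaling (Ccl5, Cxcl9 and Cxcl13, up to 0.0829), no filter (Ccl5 and Cxcl13, up to 0.0763), an offset of 4 (Ccl5, 0.129) and the Actb covariate (Ccl5, 0.0777).

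Cytokines and their receptors followed, to be read against the background of 4.97% of all genes that rose. Of 23 tested, 10 rose (43.5%), between 6 and 10 with single arrays left out (lowest without either CLA 24 h pool), and none fell by the adjusted or the unadjusted p. Il1rn, the secreted antagonist of the interleukin 1 receptor, read 106 and 0 in the 12 h pools and 1334 and 1748 in the 24 h pools. Its late pools stood above all 6 others, and the log2 change was 5.13 ± 1.01 (adjusted p = 0.0201). Il1b, one of the ligands it opposes, rose at least 4.41-fold, from 91.9 and 89.1 to 573 and 429 (adjusted p = 0.00646). Clcf1, a cytokine of the interleukin 6 family, went from 0 and 37.1 to 1688 and 2322, at least 17.2-fold, while no LA pool of either time exceeded 1.2. Il6 itself stayed dim at 12 h, with 12.4 and 0, and reached 238 and 301 at 24 h, a rise of at least 2.45-fold (adjusted p = 0.00646). Csf1, the growth factor of macrophages, read 657 and 882 in the 12 h pools and 5321 and 5796 in the 24 h pools and changed by 2.84 ± 0.20 (adjusted p = 0.000588). Its LA pools ran from 618 to 895, so the 12 h pools of both diets lay in one range and the late CLA pools stood alone. Socs3, the feedback inhibitor of interleukin 6 signalling, read 349 and 631 in the 12 h pools and 2975 and 3655 in the 24 h pools and changed by 2.77 ± 0.28 (adjusted p = 0.00198). The receptor chain Il4ra rose from 79.3 and 153 to 665 and 696, by 2.46 ± 0.44 (adjusted p = 0.0142). With an array withheld, the adjusted p reached 0.114 for Il1rn and 0.0934 for Il4ra. Fits in which 1 or more of them missed the threshold were those without either CLA 12 h pool or either CLA 24 h pool. Without either CLA 12 h pool the log2 change lay between 3.66 and 6.59 for Il1rn and between 5.23 and 6.96 for Clcf1. Calls also ended under the mean of probe sets (Il4ra, 0.225).

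Of 15 NF-kB subunits, inhibitors and direct targets, 2 rose (13.3% against a background of 4.97%) and none fell. In 12 both late CLA pools were above both early ones, while 7690 of all 12627 genes were separated in either direction. Icam1, an adhesion protein that leukocytes grip, read 194 and 161 in the 12 h pools and 1383 and 1399.7 in the 24 h pools and changed by 2.87 ± 0.17 (adjusted p = 0.000231). Nfkbie, an inhibitor that holds NF-kB in the cytoplasm, rose 4.47-fold (adjusted p = 0.00439). In the acute phase list 2 of 12 rose (16.7% against 4.97%). Ptx3, a soluble pattern recognition protein, read 882 and 1362 in the 12 h pools and 6892 and 6998 in the 24 h pools, with 69.4 to 145 in the LA pools. Its 12 h pools were thus already above LA, and it rose further by 2.65 ± 0.32 (adjusted p = 0.00415). Lcn2, a siderophore-binding protein, came up from 8.7 and 7.1 to 290.1 and 143, at least 1.90-fold (adjusted p = 0.0143). Saa3, another acute phase gene of fat, was at 864 and 955, then 1347 and 1126, and its change of 0.43 did not pass (adjusted p = 0.523). Single omissions raised the adjusted p to 0.0832 for Lcn2. The call ended without either CLA 12 h pool or replicate 1 of CLA 24 h.

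**Figure D2:**
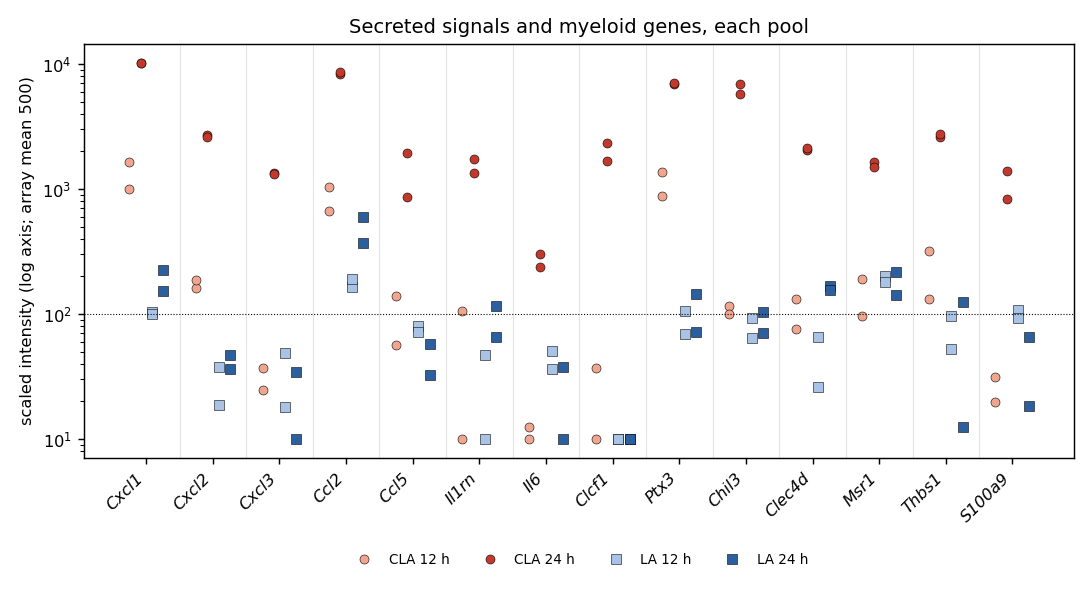
Scaled intensity of 14 genes in each pool on a log axis, by diet and time (circles CLA, squares LA; values under 10 are drawn at 10, and the dotted line marks 100). For each gene the 2 CLA 24 h pools lie above all 6 other pools.

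Chil3, a chitinase-like protein of activated mouse macrophages, read 115 and 101 in the 12 h pools and 6961 and 5716 in the 24 h pools. The LA pools stayed at 63.9 to 104, and the log2 change was 5.68 ± 0.23 (adjusted p = 3.88e-05), or 51.1-fold. Msr1, a scavenger receptor of macrophages, read 189.9 and 95.9 in the 12 h pools and 1649 and 1504 in the 24 h pools and changed by 3.39 ± 0.32 (adjusted p = 0.00149). The C-type lectins Clec4d and Clec4n, found on myeloid cells, rose 18.01-fold and at least 6.89-fold (adjusted p = 0.000932 and 8.25e-05). Fcgr1, a high-affinity antibody receptor, rose by 2.32 ± 0.35 (adjusted p = 0.00762), and Mpeg1, a pore-forming protein of macrophages, by 1.46 ± 0.27 (adjusted p = 0.0165). In all, 7 of 21 macrophage markers rose and 1 fell, with between 3 and 7 rising when single arrays were left out, the fewest without replicate 2 of CLA 24 h, and 4 without scaling. The shares that rose and fell were 33.3% and 4.76%, against backgrounds of 4.97% and 4.67%. The one that fell was Cd163, a haemoglobin scavenger receptor of resident macrophages, which went from 3244 and 2503 to 1377 and 1199.7 (-1.14 ± 0.18, adjusted p = 0.00881). The summed level of the list was 44299.7 and 39398 at 12 h and 66111 and 55956 at 24 h. The general macrophage markers Adgre1 and Csf1r had changes of 0.02 and -0.03, and the median of the list was 0.30 in CLA and 0.11 in LA. On leaving out each array in turn, the highest adjusted p was 0.0504 for Fcgr1, 0.0933 for Mpeg1 and 0.0734 for Cd163. They were lost, not always together, without either CLA 12 h pool or either CLA 24 h pool. Past 0.05 too, by setting, went those under no scaling (Mpeg1 and Cd163, up to 0.0616).

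Of 7 neutrophil markers, 5 rose, but only 1 did so without replicate 1 of CLA 24 h. The 5 are 71.4% of the list, against a background of 4.97%. The summed level of the 7 markers was 715 and 556 in the 12 h pools and 4282 and 3119 in the 24 h pools, against 770.1 to 1002 in LA. S100a9, which with S100a8 forms calprotectin, read 19.8 and 31.2 in the 12 h pools and 1387 and 830.0 in the 24 h pools and rose at least 9.39-fold. S100a8 changed by 1.92 ± 0.31 (adjusted p = 0.00996), while Mmp8 rose from a dim level to 162 and 115, and Csf3r likewise to 120.1 and 151. Of 8 T and NK cell markers, Il7r and Klrd1 rose (25.0% against 4.97%), by 1.56 ± 0.23 (adjusted p = 0.00762) and at least 3.14-fold. Of 4 B cell markers, Ighm fell (25.0% against 4.67%), with a change of -1.25 ± 0.32 (adjusted p = 0.0489). None of 5 mast cell markers passed by the adjusted or the unadjusted p. Kit, the receptor of mast cells and melanocytes, had a change of 1.26 with an adjusted p of 0.373. In whole tissue, more cells of a type and more RNA per cell cannot be told apart, and the part of these cells in the chemokine and cytokine results was not tested. Dropping arrays singly brought the adjusted p to 0.0633 for S100a8, 0.131 for Mmp8, 0.140 for Csf3r, 0.0595 for Il7r, 0.187 for Klrd1 and 0.247 for Ighm. At least 1 of these calls ended without either CLA 4 h pool, either LA 4 h pool, either CLA 12 h pool, either CLA 24 h pool, either LA 12 h pool or either LA 24 h pool. Without either CLA 12 h pool the log2 change lay between 1.36 and 3.23 for Csf3r. Among the other settings, calls were lost under no scaling (Klrd1 and Ighm, up to 0.0903), quantile normalization (Klrd1, 0.0565), no filter (Mmp8, Klrd1 and Ighm, up to 0.0806), an offset of 4 (Mmp8, Csf3r and Ighm, up to 0.0638), the mean of probe sets (Ighm, 0.417), the 8 arrays of 12 and 24 h alone (Csf3r, Klrd1 and Ighm, up to 0.0697), a prior variance following the mean level (Csf3r, 0.287) and the Actb covariate (Mmp8, Klrd1 and Ighm, up to 0.0853).

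Immediate early genes, which switch on within minutes of a stimulus, were higher at 24 h: 8 of 23 rose (34.8%), between 4 and 13 with single arrays left out, the fewest without replicate 2 of CLA 24 h. The background of rising genes was 4.97%. None of the 23 fell by the adjusted p, and 2 were lower at an unadjusted p below 0.05. Fos read 414 and 517 in the 12 h pools and 2621 and 2286 in the 24 h pools, Egr1 1290.3 and 1590.3 in the 12 h pools and 6490.3 and 7414 in the 24 h pools. Both had late pools clear of the early ones, with log2 changes of 2.36 ± 0.27 (adjusted p = 0.00314) and 2.26 ± 0.22 (adjusted p = 0.00153). Egr2 and Ier5 rose by 2.12 ± 0.35 (adjusted p = 0.0105) and 1.71 ± 0.31 (adjusted p = 0.0157). Jun, by contrast, had a change of -0.47 that did not pass (adjusted p = 0.152). Atf3, a stress-induced factor far above the LA pools at both times, was at 1445 and 1194, then 1392 and 1199.6 in CLA, a difference of -0.02 (adjusted p = 0.968). The highest adjusted p with one array missing was 0.0748 for Egr2 and 0.108 for Ier5. Loss of 1 or more of them followed from leaving out either CLA 12 h pool or either CLA 24 h pool.

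Genes of tissue remodelling rose in numbers: 7 of 13 matricellular genes and 10 of 18 matrix proteases and inhibitors (53.8% and 55.6%, against a background of 4.97%). Single omissions left between 5 and 7 and between 5 and 10, the fewest without replicate 2 of CLA 12 h or either CLA 24 h pool and without replicate 1 of CLA 24 h. Thbs1, which encodes thrombospondin 1, an adhesive protein that activates latent TGF-beta, read 319 and 132 in the 12 h pools and 2621 and 2765 in the 24 h pools and changed by 3.60 ± 0.68 (adjusted p = 0.0168). The hyaluronan receptor Cd44 read 993 and 1246 in the 12 h pools and 6779 and 7640.2 in the 24 h pools (2.68 ± 0.22, adjusted p = 0.000932), and the proteoglycan Vcan went from 380.1 and 434 to 2081 and 1939 (2.26 ± 0.18, adjusted p = 0.000856). Ccn1, a secreted protein that is also an immediate early gene, changed by 1.75 ± 0.17 (adjusted p = 0.00148), and Tnc, tenascin C, by 2.39 ± 0.52 (adjusted p = 0.0286). Among the inhibitors the family split: Timp1 read 176 and 148 in the 12 h pools and 1669.8 and 1485 in the 24 h pools, a rise of 8.97-fold, while Timp4, the form typical of fat, went from 3628 and 3226 to 1758 and 1413 (-1.11 ± 0.19, adjusted p = 0.0113). The aggrecanase Adamts4 rose at least 5.95-fold, Mmp9 by 2.51 ± 0.38 (adjusted p = 0.00813), Mmp3 by 1.42 ± 0.19 (adjusted p = 0.00615) and Plaur, the urokinase receptor, by 1.52 ± 0.19 (adjusted p = 0.00424). Timp4 was the 1 gene of these 18 that fell (5.56% against a background of 4.67%). Of 15 collagens tested none rose by the adjusted p, 1 was higher at an unadjusted p below 0.05, and 2 fell (13.3% against the background of 4.67%): Col15a1, a basement membrane collagen, from 3304 and 2733 to 1012 and 896 (-1.64 ± 0.21, adjusted p = 0.00440), and Col6a2, with a change of -0.63 ± 0.15 (adjusted p = 0.0357). When one array was missing, the adjusted p went up to 0.0948 for Thbs1, 0.129 for Tnc, 0.0886 for Timp4, 0.0505 for Mmp9 and 0.217 for Col6a2. These genes missed it, not always together, without either LA 4 h pool, either CLA 12 h pool, either CLA 24 h pool, either LA 12 h pool or either LA 24 h pool. Without either CLA 12 h pool the log2 change lay between 3.02 and 4.19 for Thbs1. The threshold was also missed under no scaling (Col6a2, 0.194), quantile normalization (Col6a2, 0.0588), no filter (Tnc, 0.0536), the mean of probe sets (Col6a2, 0.0850) and the 8 arrays of 12 and 24 h alone (Tnc and Col6a2, up to 0.0516).

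Chaperones of the endoplasmic reticulum rose as a minority with a shared direction. Of 24 tested, 5 rose (20.8% against a background of 4.97%) and none fell by the adjusted or the unadjusted p. In 21 both late CLA pools were above both early ones, while 7690 of all 12627 genes were separated in either direction. With single arrays left out, between 2 and 7 rose, the fewest without either CLA 24 h pool. The median was 0.45 in CLA and -0.11 in LA. Creld2 and Hsp90b1 are shown because their windows hold the endoplasmic reticulum stress element, searched as CCAAT and CCACG with any 9 bases between them, which is bound by ATF6 together with NF-Y. The capitals mark it on either strand, and the windows are as above.
Creld2, chr15:88819396-88819645, plus strand: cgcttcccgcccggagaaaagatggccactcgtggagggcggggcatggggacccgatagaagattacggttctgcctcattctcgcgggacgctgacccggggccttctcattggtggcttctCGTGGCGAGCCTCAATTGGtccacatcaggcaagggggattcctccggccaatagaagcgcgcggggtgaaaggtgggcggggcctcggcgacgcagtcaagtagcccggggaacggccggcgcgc
Hsp90b1, chr10:86705445-86705694, minus strand: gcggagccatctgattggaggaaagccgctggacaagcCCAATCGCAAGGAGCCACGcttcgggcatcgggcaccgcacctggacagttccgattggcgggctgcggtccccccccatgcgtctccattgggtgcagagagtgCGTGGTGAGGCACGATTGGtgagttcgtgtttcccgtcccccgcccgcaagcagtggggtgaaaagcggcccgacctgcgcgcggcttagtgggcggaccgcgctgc
This motif, searched on both strands, was in 37 of the 32851 windows (0.113%) and in 14 of 10149 tested genes with a window (0.138%). It was in 10 of the 20 endoplasmic reticulum chaperone genes with a window. Of those 10, Creld2 and Hsp90b1 rose and 8 did not pass. Creld2, a protein-folding factor of the endoplasmic reticulum, read 409 and 583 in the 12 h pools and 2394 and 2183 in the 24 h pools and changed by 2.19 ± 0.23 (adjusted p = 0.00227). Its LA pools lay at 489 to 621, beside the early CLA pools. Manf, a secreted protein retained there, read 2298 and 2420.1 in the 12 h pools and 7892 and 8169 in the 24 h pools and changed by 1.76 ± 0.18 (adjusted p = 0.00177). Pdia4, a disulfide isomerase, rose by 1.75 ± 0.32 (adjusted p = 0.0150), Hsp90b1, the chaperone GRP94, by 0.79 ± 0.14 (adjusted p = 0.0131) and the oxidase Ero1a by 0.70 ± 0.14 (adjusted p = 0.0236). Hspa5, the main chaperone BiP, had a change of 0.64 (adjusted p = 0.0545). Leaving out one array at a time took the adjusted p up to 0.0991 for Pdia4, 0.0838 for Hsp90b1 and 0.139 for Ero1a. Each of them missed the threshold in at least 1 of the fits without either CLA 12 h pool or either CLA 24 h pool. Other settings that took the adjusted p past 0.05 were no scaling (Hsp90b1 and Ero1a, up to 0.138).

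Of 36 genes of the integrated stress response none rose by the adjusted p, and 6 were higher at an unadjusted p below 0.05. The 3 that fell (8.33% against 4.67%) were Vldlr, a lipoprotein receptor, with a change of -1.65 ± 0.18 (adjusted p = 0.00302), Gpt2, a mitochondrial alanine aminotransferase, with -1.49 ± 0.21 (adjusted p = 0.00664), and Phgdh, the first enzyme of serine synthesis, with -0.92 ± 0.17 (adjusted p = 0.0163). Trib3, a pseudokinase induced by this response, was at 1819 and 1597 and then 719.6 and 728, against 128 to 169 in LA, and its change of -1.22 missed the threshold (adjusted p = 0.0639). Chac1, which degrades glutathione, was at 1363 and 1623 and then 945 and 939, with 278 to 549 in LA (adjusted p = 0.0727). None of 17 aminoacyl-tRNA synthetases passed, with 2 higher and 1 lower at an unadjusted p below 0.05. Vars and Wars had their largest changes, 0.76 and 0.68. With an array withheld, the adjusted p reached 0.111 for Phgdh. The call ended without either CLA 12 h pool or either CLA 24 h pool. Calls also ended under no scaling (Phgdh, 0.0558).

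Of 21 heat shock chaperones 1 rose (4.76%) and 2 fell (9.52%), against backgrounds of 4.97% and 4.67%. Cryab, alpha B crystallin, rose by 0.85 ± 0.21 (adjusted p = 0.0390), and Fkbp4 and Hspa4l changed by -1.27 and -0.82. A dim second probe set of Fkbp4 had a change of 1.20 that did not pass (adjusted p = 0.414), and the mean of the probe sets was near 0. Hspa1a, the inducible HSP70, was at 5341 and 5825, then 3766 and 3348 in CLA against 6.3 to 186 in LA, with no passing change (adjusted p = 0.548). Of 20 NRF2 targets 1 rose and 3 fell, that is 5% and 15%. The riser was Srxn1, sulfiredoxin, which read 4144 and 4500.4 in the 12 h pools and 9515 and 10215 in the 24 h pools and changed by 1.19 ± 0.14 (adjusted p = 0.00409), with 754 to 1012 in LA. The fallers were Me1, which makes NADPH, Taldo1 and Gsta4, and they changed by -1.47, -0.87 and -0.67. Hmox1, haem oxygenase 1, was at 2089 and 1933, then 2931 and 2817 (adjusted p = 0.162). Both metallothioneins were higher in the late pools but neither passed by the adjusted p, and 1 had an unadjusted p below 0.05: Mt2 went from 8154 and 5242 to 13969 and 15412 and Mt1 from 12607 and 9501 to 18919 and 19058. Single omissions raised the adjusted p to 0.190 for Cryab, 0.190 for Fkbp4, 0.166 for Hspa4l, 0.0886 for Taldo1 and 0.179 for Gsta4. Fits in which 1 or more of them missed the threshold were those without either LA 4 h pool, either CLA 12 h pool, either CLA 24 h pool, either LA 12 h pool or either LA 24 h pool. Past 0.05 too, by setting, went those under no scaling (Cryab, Fkbp4, Hspa4l, Taldo1 and Gsta4, up to 0.167), no filter (Cryab and Fkbp4, up to 0.0568), the mean of probe sets (Fkbp4, 0.975) and the Actb covariate (Cryab and Gsta4, up to 0.0599).

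Interferon-induced genes rose in 5 of 25 cases (20.0% against a background of 4.97%). In 21 of the 25 both late CLA pools were above both early ones, while 7690 of all 12627 genes were separated in either direction. None fell by the adjusted or the unadjusted p. Oasl1, an antiviral protein that limits interferon synthesis, read 109 and 154 in the 12 h pools and 619 and 668 in the 24 h pools and changed by 2.17 ± 0.26 (adjusted p = 0.00418). Ifit1, which binds foreign RNA, read 518 and 655 in the 12 h pools and 2000.0 and 1822 in the 24 h pools (1.68 ± 0.33, adjusted p = 0.0207), and in LA it moved the other way, from 1457 and 1136 to 600.2 and 345 (log2 change -1.47, adjusted p = 0.299). Oasl2, Oas1a and Irf9 rose by 1.505, 1.46 and 1.15. Of 19 p53 targets and death genes, 4 rose (21.1% against 4.97%): Gadd45b, a stress sensor, from 380.4 and 286 to 1891 and 1551 (2.32 ± 0.23, adjusted p = 0.00153), the death-promoting Pmaip1 and Bcl2l11 by 1.64 and 1.40, and the cycle inhibitor Cdkn1a by 1.02. None of them fell by the adjusted p and 2 were lower at an unadjusted p below 0.05. Without replicate 1 of CLA 12 h, 1 interferon-induced gene rose, and without replicate 2 of CLA 24 h 1 of the p53 list did. On leaving out each array in turn, the highest adjusted p was 0.125 for Ifit1, 0.0509 for Oasl2, 0.0816 for Oas1a, 0.0993 for Irf9, 0.117 for Pmaip1, 0.0566 for Bcl2l11 and 0.0682 for Cdkn1a. They were lost, not always together, without either CLA 12 h pool or either CLA 24 h pool. Among the other settings, calls were lost under no scaling (Oas1a, 0.0562) and the Actb covariate (Pmaip1, 0.0517).

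Of 20 fatty acid synthesis genes tested, 8 fell (40.0% against 4.67%), and none rose by the adjusted or the unadjusted p. The median log2 change was -0.76 in CLA and 0.13 in LA, and with single arrays left out between 5 and 8 fell, the fewest without replicate 2 of CLA 24 h. Acss2, which turns acetate into acetyl-CoA, read 16936 and 13694 in the 12 h pools and 4084 and 3053 in the 24 h pools. Every 24 h pool was below every 12 h pool, and the change was -2.10 ± 0.19 (adjusted p = 0.00118). Elovl6, which lengthens palmitate, read 12450.5 and 10581 in the 12 h pools and 2899.8 and 2666 in the 24 h pools and changed by -2.04 ± 0.15 (adjusted p = 0.000706), while its LA pools lay at 23096 to 27648. A brighter and a dimmer probe set of Elovl6 fell by 2.04 and 1.79, and the dimmest did not pass, so the mean of its probe sets missed the threshold. Thrsp, a nuclear promoter of lipogenesis, read 41260.5 and 38154 in the 12 h pools and 11351 and 9868 in the 24 h pools (-1.90 ± 0.17, adjusted p = 0.00118). The threshold was also missed under the mean of probe sets (Elovl6, 0.0959).

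Me1, malic enzyme, read 40120.4 and 35984 in the 12 h pools and 15412 and 12153 in the 24 h pools and changed by -1.47 ± 0.16 (adjusted p = 0.00302). Fasn, fatty acid synthase, read 44981 and 43069.6 in the 12 h pools and 20106 and 18749 in the 24 h pools and changed by -1.18 ± 0.18 (adjusted p = 0.00762). In LA, Fasn was at 44863 and 43866 and then 48913 and 56954. Slc25a1, which exports citrate from mitochondria, changed by -1.43 ± 0.22 (adjusted p = 0.00885), and Slc25a10, a mitochondrial dicarboxylate carrier, read 4899 and 5026 in the 12 h pools and 1396 and 1190.2 in the 24 h pools (-1.93 ± 0.23, adjusted p = 0.00409). The factor Srebf1, which drives many of these genes, was at 2132 and 3627, then 3023 and 3115, with a change of 0.14 (adjusted p = 0.834), and was between 7184 and 10314 in LA. Pnpla3, its target, was at 534 and 862, then 563 and 590.3 in CLA and at 2924 to 5311 in LA, a level below LA at both times (change -0.23, adjusted p = 0.583). Thrsp, Fasn and Me1 reached 70.9%, 70.3% and 66.1% of the brightest probe set on an array, where a scanner can understate a difference. Dropping arrays singly brought the adjusted p to 0.0638 for Fasn and 0.0718 for Slc25a1. At least 1 of these calls ended without either CLA 12 h pool or replicate 2 of CLA 24 h.

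Some genes of triglyceride assembly fell, as did some of a list of lipolysis, its restraint and the lipid droplet. They were 40.0% and 20.0% of those tested, against a background of 4.67%. Of all 12627 genes, 7690 had CLA pools of the 2 times separated in either direction. Of 10 assembly genes 4 fell, 1 to 7 with single arrays left out (the fewest without either CLA 12 h pool or replicate 2 of CLA 24 h), and 9 had both late CLA pools below both early ones. Lpin1, a phosphatidate phosphatase, read 9009.5 and 9159 in the 12 h pools and 4020.5 and 4736 in the 24 h pools and changed by -1.05 ± 0.15 (adjusted p = 0.00680). Dgat1, which adds the last acyl chain, changed by -1.28 ± 0.21 (adjusted p = 0.0112) on its bright probe set, but a dim one had a change of the other sign that did not pass. Agpat2 and Gpd1, earlier in the path, changed by -0.88 ± 0.20 (adjusted p = 0.0308) and -0.82 ± 0.19 (adjusted p = 0.0324). Dgat2 was at 22870.1 and 21750.1, then 14511 and 13617, and its change of -0.67 did not pass (adjusted p = 0.0899). Its second probe set, also bright, fell by 1.16 (adjusted p = 0.0407 over all probe sets). Of 15 lipolysis and droplet genes 3 fell: Pde3b, the phosphodiesterase through which insulin restrains lipolysis, read 15043 and 15725 in the 12 h pools and 7154 and 7486 in the 24 h pools (-1.07 ± 0.15, adjusted p = 0.00653), the droplet protein Cidea changed by -1.41 ± 0.31 (adjusted p = 0.0285) and Mgll, which finishes lipolysis, by -1.04 ± 0.24 (adjusted p = 0.0348). No member of the 2 lists rose by the adjusted p, and 2 of the lipolysis list were higher at an unadjusted p below 0.05. Angptl8, an insulin-induced partner of the lipoprotein lipase inhibitors, read 1120.3 and 922 in the 12 h pools and 216 and 212 in the 24 h pools (-2.17 ± 0.26, adjusted p = 0.00423), with 3917 and 2830.1 and then 2188 and 1896 in LA. The highest adjusted p with one array missing was 0.0875 for Dgat1, 0.182 for Agpat2, 0.186 for Gpd1, 0.140 for Cidea and 0.195 for Mgll. Loss of 1 or more of them followed from leaving out either LA 4 h pool, either CLA 12 h pool, either CLA 24 h pool, either LA 12 h pool or either LA 24 h pool. Other settings that took the adjusted p past 0.05 were no scaling (Agpat2, Gpd1 and Mgll, up to 0.113), no filter (Mgll, 0.0552), the mean of probe sets (Dgat1 and Mgll, up to 0.878) and the Actb covariate (Agpat2 and Cidea, up to 0.0512).

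**Figure D3:**
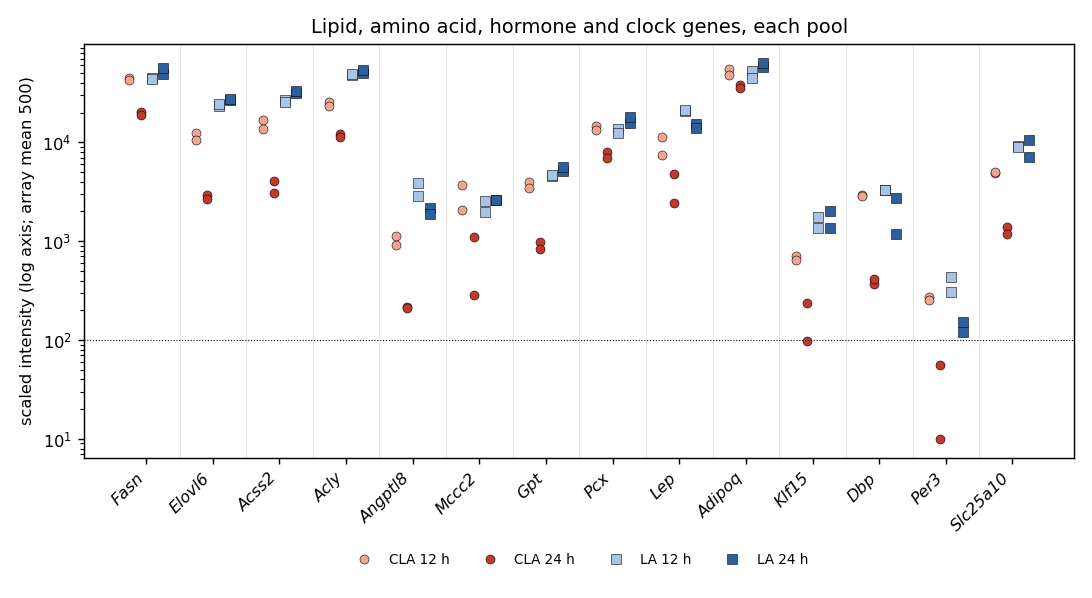
Scaled intensity of 14 genes in each pool on a log axis, by diet and time (circles CLA, squares LA; values under 10 are drawn at 10, and the dotted line marks 100). For each gene the 2 CLA 24 h pools lie below the 2 CLA 12 h pools, and Adipoq is the one whose difference did not pass.

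Some genes of mitochondrial fuel use fell in CLA. Of 19 fatty acid oxidation genes 9 fell, of 21 genes of branched-chain amino acid breakdown 12, of 19 citric acid cycle genes 9 and of 33 genes of oxidative phosphorylation 6. These are 47.4%, 57.1%, 47.4% and 18.2%, against a background of 4.67%. None of the members of these 4 lists rose by the adjusted or the unadjusted p. Both late CLA pools lay below both early ones for 17, 20, 19 and 29 of the genes, in that order. Of all 12627 genes, 7690 were separated in either direction. The medians were -0.68, -0.67, -0.63 and -0.40 in CLA, against 0.16, 0.22, 0.04 and 0.14 in LA. Skeletal muscle is rich in such transcripts, and its markers were higher in the early CLA pools: Mylpf went from 735 and 503 to 0 and 137, and Tnnc2 from 1261 and 811 to 46.1 and 167. None of the 10 muscle markers passed by the adjusted p, 7 were lower at an unadjusted p below 0.05, their median log2 change was -3.34, or -1.64 with dim groups set at 100, and their part in these lists was not tested. With the deposited values left unscaled the 4 counts fell to 2, 4, 3 and 1. Without replicate 2 of CLA 24 h they were 0, 1, 3 and 0.

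In the oxidation of fatty acids, Acaa2, a thiolase, changed by -1.28 ± 0.21 (adjusted p = 0.0102), and the electron carrier Etfb by -1.05 ± 0.17 (adjusted p = 0.00959). The dehydrogenases Acads and Acadm changed by -1.05 ± 0.25 (adjusted p = 0.0348) and -0.84 ± 0.19 (adjusted p = 0.0321) and the peroxisomal thiolase Acaa1a by -0.89 ± 0.19 (adjusted p = 0.0254). For branched-chain amino acids, Ivd, which acts on the leucine product, read 2030.1 and 2254 in the 12 h pools and 988 and 936 in the 24 h pools, and its change of -1.14 ± 0.14 (adjusted p = 0.00439) kept its call without any single array. Mccc2, the next enzyme of leucine breakdown, had uneven pools, with 3669 and 2062 in the 12 h pools and 1114 and 284 in the 24 h pools (-2.25 ± 0.56, adjusted p = 0.0417). Mmut, which feeds propionate carbon into the citric acid cycle, changed by -1.23 ± 0.17 (adjusted p = 0.00615), Echs1, a hydratase, by -1.39 ± 0.26 (adjusted p = 0.0168) and the kinase Bckdk by -1.06 ± 0.24 (adjusted p = 0.0333). When one array was missing, the adjusted p went up to 0.0831 for Acaa2, 0.0731 for Etfb, 0.188 for Acads, 0.183 for Acadm, 0.132 for Acaa1a, 0.220 for Mccc2, 0.0521 for Mmut, 0.117 for Echs1 and 0.174 for Bckdk. These genes missed it, not always together, without either LA 4 h pool, either CLA 12 h pool, either CLA 24 h pool, either LA 12 h pool or either LA 24 h pool. Without either CLA 24 h pool the log2 change lay between -3.21 and -1.29 for Mccc2. Calls also ended under no scaling (Acads, Acadm, Acaa1a, Mccc2 and Bckdk, up to 0.140), no filter (Acads, Mccc2 and Bckdk, up to 0.0758), the mean of probe sets (Mmut, 0.0534), the 8 arrays of 12 and 24 h alone (Mccc2, 0.0759) and the Actb covariate (Acaa1a, Mccc2 and Bckdk, up to 0.0563).

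At the entry of the citric acid cycle, the pyruvate dehydrogenase subunit Dlat read 6001 and 5612 in the 12 h pools and 2492 and 1858 in the 24 h pools and changed by -1.42 ± 0.16 (adjusted p = 0.00314). Pdha1, another subunit, read 17816 and 17069 in the 12 h pools and 8704 and 8586 in the 24 h pools and changed by -1.01 ± 0.13 (adjusted p = 0.00451). Idh3a, an isocitrate dehydrogenase subunit, read 18671 and 17781 in the 12 h pools and 7323 and 6919 in the 24 h pools (-1.35 ± 0.17, adjusted p = 0.00445). For these 3 genes both late pools were lower than every other pool. Pcx, pyruvate carboxylase, which supports lipogenesis in fat, changed by -0.91 ± 0.18 (adjusted p = 0.0210) and Suclg1, a succinyl-CoA ligase subunit, by -0.86 ± 0.17 (adjusted p = 0.0194). In the respiratory chain, Ndufs1 of complex I changed by -0.999 ± 0.15 (adjusted p = 0.00731), Ndufb3 by -0.89, Uqcrfs1 of complex III by -0.87 and the ATP synthase subunits Atp5a1 and Atp5o by -1.06 and -0.79. Leaving out one array at a time took the adjusted p up to 0.138 for Pcx, 0.132 for Suclg1, 0.0654 for Ndufs1, 0.123 for Ndufb3, 0.117 for Uqcrfs1, 0.117 for Atp5a1 and 0.144 for Atp5o. Each of them missed the threshold in at least 1 of the fits without either CLA 12 h pool or either CLA 24 h pool. Past 0.05 too, by setting, went those under no scaling (Pcx, Suclg1, Ndufs1, Ndufb3, Uqcrfs1 and Atp5o, up to 0.125) and the Actb covariate (Uqcrfs1, 0.0541).

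**Figure D4:**
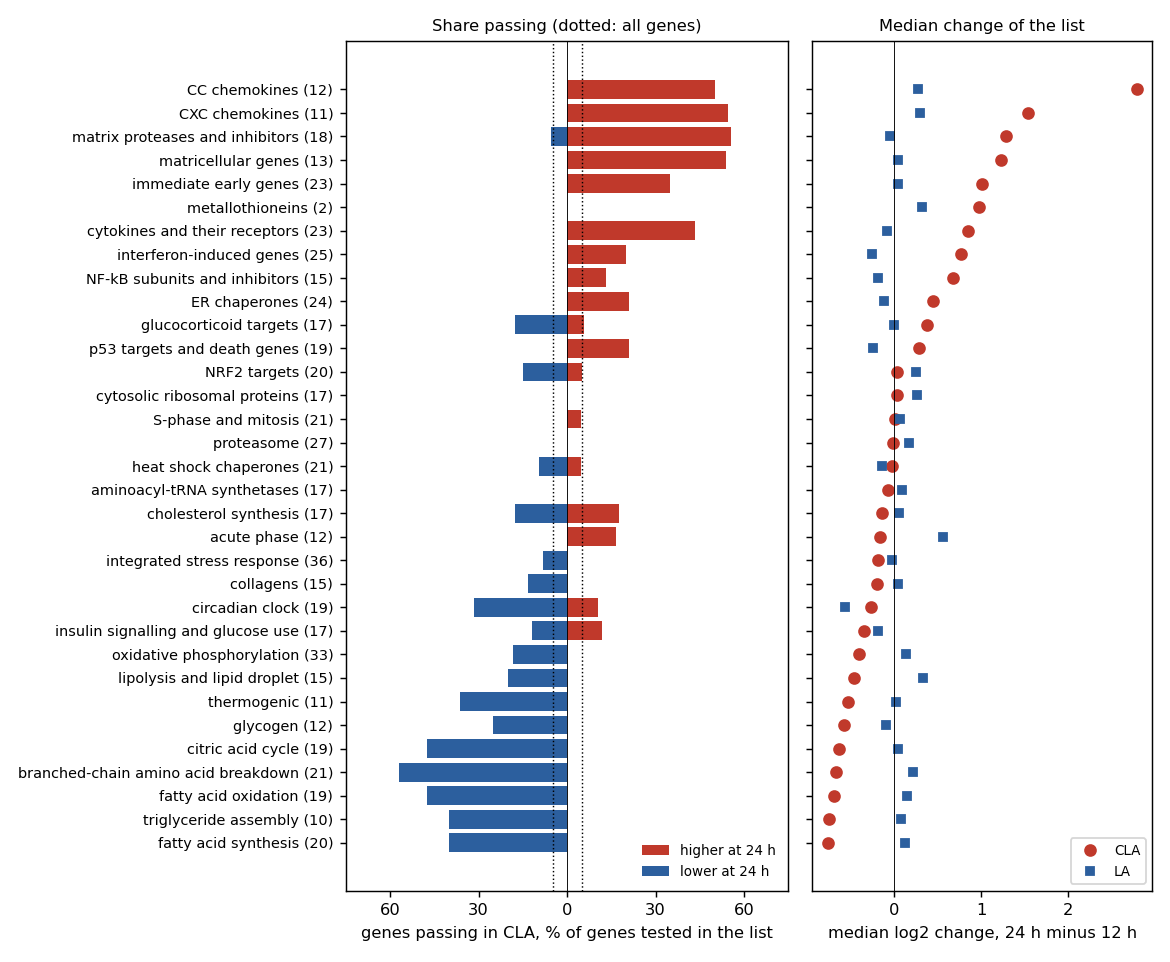
For each of 33 pathway lists (number of genes tested in brackets), the left panel gives the share of its genes that rose or fell in CLA, with dotted lines at the background of 4.97% and 4.67%, and the right panel gives the median log2 change in CLA and in LA. Chemokine and matrix protease lists stand at the rising end and lipid and mitochondrial lists at the falling end, while the LA medians lie nearer to 0 for most lists.

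Cholesterol synthesis moved both ways, with 3 of 17 genes higher and 3 lower (17.6% each, against backgrounds of 4.97% and 4.67%). Srebf2, its master regulator, read 121 and 255 in the 12 h pools and 881 and 809.5 in the 24 h pools and changed by 2.16 ± 0.33 (adjusted p = 0.00783). That was its brightest probe set, and a second one, of mean level 295 against 368, changed by 0.64 and did not pass (adjusted p = 0.212 over all probe sets). Sqle and Msmo1 rose by 1.12 ± 0.21 (adjusted p = 0.0183) and 0.998 ± 0.20 (adjusted p = 0.0226). Lss, the next enzyme after Sqle, went from 1572 and 1382 to 483 and 364 (-1.77 ± 0.20, adjusted p = 0.00308), although its other probe sets did not pass. Nsdhl and Pmvk changed by -1.22 and -0.92, at adjusted p of 0.00545 and 0.0284. With an array withheld, the adjusted p reached 0.0522 for Srebf2, 0.0992 for Sqle, 0.125 for Msmo1 and 0.151 for Pmvk. Fits in which 1 or more of them missed the threshold were those without either CLA 12 h pool or either CLA 24 h pool. Among the other settings, calls were lost under no scaling (Sqle, Msmo1 and Pmvk, up to 0.122), the mean of probe sets (Lss, 0.134) and the Actb covariate (Msmo1 and Pmvk, up to 0.0646).

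Insulin signalling and glucose use also split, with 2 of 17 genes higher and 2 lower (11.8% each, against backgrounds of 4.97% and 4.67%). Slc2a1, the glucose transporter that needs no insulin, read 1612 and 2261 in the 12 h pools and 4033 and 5863 in the 24 h pools (1.34 ± 0.27, adjusted p = 0.0220), above 674 to 1013 in LA. The ubiquitin ligase Cbl rose by 0.69. Pik3r1, the regulatory subunit of PI3-kinase, went from 1105 and 1498 to 584 and 600.0 (-1.10 ± 0.21, adjusted p = 0.0172), and in LA from 3897 and 3493 to 1626 and 1313. Tbc1d4, which controls the insulin-driven transporter, changed by -1.02 (adjusted p = 0.0113). Of 12 glycogen genes 3 fell (25.0% against 4.67%) and none rose, with 1 higher at an unadjusted p below 0.05. Pygl, a glycogen phosphorylase, read 15126 and 12406 in the 12 h pools and 5331 and 5147 in the 24 h pools (-1.38 ± 0.14, adjusted p = 0.00202), and Gbe1 and Gyg, which build glycogen, changed by -0.78 and -0.56. The glycogen-targeting subunits Ppp1r3b and Ppp1r3c were far below LA at both times, with 455 and 731, then 396 and 372 for the former and 548 and 695, then 670.0 and 616 for the latter, and neither change passed (adjusted p = 0.243 and 0.890). Single omissions raised the adjusted p to 0.139 for Slc2a1, 0.160 for Cbl, 0.0947 for Pik3r1, 0.0719 for Tbc1d4, 0.146 for Gbe1 and 0.167 for Gyg. They were lost, not always together, without either LA 4 h pool, either CLA 12 h pool, either CLA 24 h pool, either LA 12 h pool or either LA 24 h pool. The threshold was also missed under no scaling (Cbl, Pik3r1, Tbc1d4, Gbe1 and Gyg, up to 0.236), quantile normalization (Gyg, 0.0545), the mean of probe sets (Pik3r1 and Tbc1d4, up to 0.151) and the Actb covariate (Gyg, 0.0722).

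In 18 of 23 adipocyte markers both late CLA pools were below both early ones, while 7690 of all 12627 genes were separated in either direction. Of the 23, 5 fell by the adjusted p (21.7% against a background of 4.67%), with none higher by the adjusted or the unadjusted p. The median of the list was -0.45 in CLA and 0.21 in LA. Lep, which encodes leptin, read 11302 and 7499 in the 12 h pools and 4802 and 2416 in the 24 h pools, and the LA pools went from 20922 and 20958 to 15441 and 14047. The CLA change was -1.43 ± 0.32 (adjusted p = 0.0317) and the LA change -0.51 (adjusted p = 0.590). Adig, a small adipocyte protein, and Npr3, the clearance receptor of natriuretic peptides, changed by -1.10 ± 0.20 (adjusted p = 0.0157) and -0.96 ± 0.20 (adjusted p = 0.0234). Adipoq, which encodes adiponectin, was at 54594 and 47889, then 37988 and 35606, a change of -0.48 that did not pass (adjusted p = 0.114) and that may be understated at this brightness. Pparg, the master factor of adipocytes, changed by -0.27 (adjusted p = 0.246). Of 11 thermogenic genes 4 fell (36.4% against 4.67%): Cidea again, the proton channel Otop1 by -1.39, Cox7a1 by -0.87 and the coactivator Ppargc1a by -1.14 into the dim range. Without replicate 1 of CLA 12 h or replicate 2 of CLA 24 h, 0 adipocyte markers passed, and 2 without scaling. On leaving out each array in turn, the highest adjusted p was 0.181 for Lep, 0.0903 for Adig, 0.124 for Npr3, 0.0744 for Otop1, 0.157 for Cox7a1 and 0.101 for Ppargc1a. At least 1 of these calls ended without either CLA 12 h pool, either CLA 24 h pool or either LA 12 h pool. Other settings that took the adjusted p past 0.05 were no scaling (Lep, Npr3, Cox7a1 and Ppargc1a, up to 0.0916), no filter (Lep, 0.0552), the mean of probe sets (Npr3 and Ppargc1a, up to 0.190) and the 8 arrays of 12 and 24 h alone (Lep, 0.0581).

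The circadian clock bears most directly on the time of day. Of 19 clock genes 2 rose and 6 fell in CLA, between 1 and 6 falling with single arrays left out (the fewest without replicate 1 of CLA 12 h) and 3 without scaling, and the list's median was -0.26 in CLA and -0.56 in LA. The shares of clock genes that rose and fell in CLA were 10.5% and 31.6%, against backgrounds of 4.97% and 4.67%. Dbp, an output factor of the clock, read 2946 and 2849 in the 12 h pools and 372 and 417 in the 24 h pools and changed by -2.83 ± 0.42 (adjusted p = 0.00731). In LA it went from 3267 and 3259 to 1188 and 2762, a change of -0.84 that did not pass (adjusted p = 0.515). Per3, a repressor of the clock, went from 272 and 254 to 8.3 and 55.9, at least 2.41-fold lower, and Per2 from 400.5 and 498 to 76.5 and 153 (-1.89 ± 0.46, adjusted p = 0.0395). In LA their changes of -1.34 and -2.30 had the same sign and did not pass (adjusted p = 0.418 and 0.299). Nr1d2 and Cry2, further repressors, changed by -1.46 ± 0.27 (adjusted p = 0.0157) and -1.05 ± 0.23 (adjusted p = 0.0303). Arntl, the activator also called BMAL1, rose from 322 and 367 to 678 and 853 (1.11 ± 0.27, adjusted p = 0.0414) with 403 to 469.5 in LA, and the kinase Csnk1e rose by 1.22 ± 0.17 (adjusted p = 0.00664) on the brighter of its probe sets. Per1 and Nr1d1 had changes of -0.77 and 1.84 that did not pass (adjusted p = 0.377 and 0.267). The smallest adjusted p for a difference between the diets in these time changes was 0.0881, for Cry2. Dropping arrays singly brought the adjusted p to 0.0622 for Per3, 0.189 for Per2, 0.102 for Nr1d2, 0.176 for Cry2 and 0.216 for Arntl. Loss of 1 or more of them followed from leaving out either CLA 12 h pool, either CLA 24 h pool, either LA 12 h pool or either LA 24 h pool. Without either CLA 24 h pool the log2 change lay between -3.52 and -1.96 for Per3. Calls also ended under no scaling (Per2, Cry2 and Arntl, up to 0.114), quantile normalization (Arntl, 0.0563), no filter (Per2 and Arntl, up to 0.0714), an offset of 4 (Per2, 0.0532), the mean of probe sets (Per2 and Csnk1e, up to 0.439) and the Actb covariate (Per2 and Arntl, up to 0.0943).

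**Figure D5:**
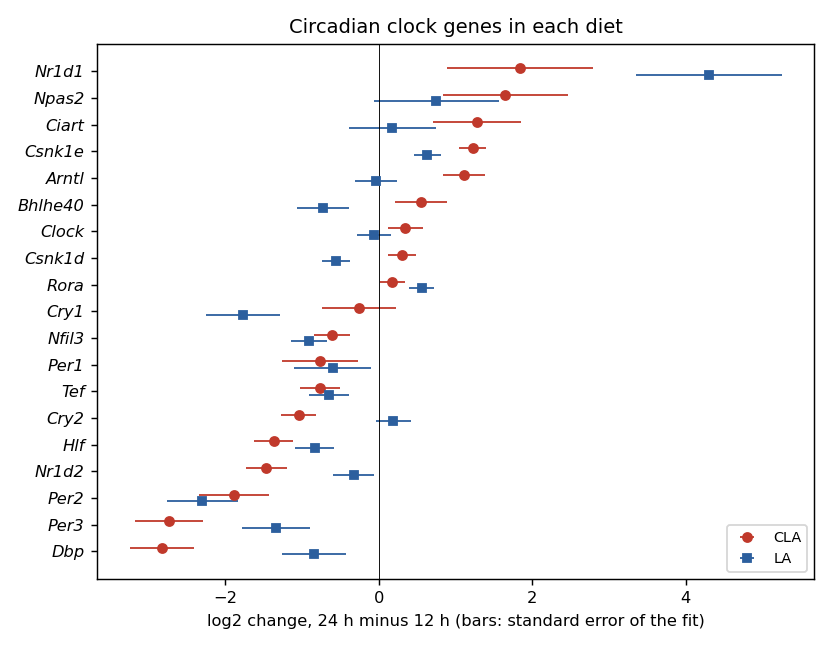
Log2 change from 12 to 24 h of 19 circadian clock genes in CLA (circles) and LA (squares), with bars for the standard error of the fit. Dbp, Per3 and Per2 lie to the left of 0 in both diets, and Arntl lies to the right of 0 in CLA and at 0 in LA.

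Of 17 glucocorticoid targets 1 rose, Lcn2 (5.88%, near the background of 4.97%), and 3 fell (17.6% against 4.67%). Tsc22d3, also called GILZ, read 2933 and 3109.9 in the 12 h pools and 996 and 1154 in the 24 h pools (-1.48 ± 0.21, adjusted p = 0.00639), and its LA pools went from 3619.6 and 5024 to 2169 and 2279. Klf15, a transcription factor of amino acid and lipid metabolism, read 711 and 644 in the 12 h pools and 234 and 97.6 in the 24 h pools, with 1348 to 2018 in LA, and changed by -2.04 ± 0.36 (adjusted p = 0.0137). Hsd11b1, which regenerates active glucocorticoid, changed by -0.82 ± 0.13 (adjusted p = 0.00959). None of 17 cytosolic ribosomal proteins or 27 proteasome subunits passed, with 0 and 2 higher and 0 and 0 lower at an unadjusted p below 0.05. The ribosomal Rps24 and the proteasomal Psmb3 had the largest changes, -0.33 and 0.54. Of 21 genes of S phase and mitosis 1 rose, a share of 4.76%, near the background of 4.97%. It was Ccnd1, which encodes cyclin D1, with a change of 1.24 ± 0.28 (adjusted p = 0.0329). The highest adjusted p with one array missing was 0.0825 for Klf15, 0.0828 for Hsd11b1 and 0.183 for Ccnd1. These genes missed it, not always together, without either LA 4 h pool, either CLA 12 h pool, either CLA 24 h pool or either LA 12 h pool. Past 0.05 too, by setting, went those under no scaling (Hsd11b1 and Ccnd1, up to 0.104) and no filter (Ccnd1, 0.0552).

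Some of the largest changes belonged to none of these pathways. Slfn4, a Schlafen gene of mouse myeloid cells, was at 0 in both 12 h CLA pools and all LA pools of 12 and 24 h, after values below 0 were set to 0. It reached 1179 and 1177 in the 24 h CLA pools, at least 10.3-fold higher (adjusted p = 1.73e-07). Groups set at 0 show no spread between their pools, so this small adjusted p rests partly on that floor. Sprr1a, a protein of the cornified envelope that injured tissues also make, read 98.7 and 69.3 in the 12 h pools and 3202 and 3461 in the 24 h pools, at least 28.8-fold higher. Malat1, a long nuclear RNA, read 851 and 856 in the 12 h pools and 9344 and 9999 in the 24 h pools on its brightest probe set (3.48 ± 0.18, adjusted p = 0.000125), and all 7 of its probe sets were higher, 5 of them passing. Star, which moves cholesterol into mitochondria for steroid synthesis, read 295 and 317 in the 12 h pools and 2859 and 3668 in the 24 h pools (3.34 ± 0.20, adjusted p = 0.000257). The other 2 of the 3 kidney and adrenal markers tested did not pass. Hspb7, a small heat shock protein known from heart and muscle, read 225 and 29.9 in the 12 h pools and 1329.9 and 1204 in the 24 h pools (3.61 ± 0.68, adjusted p = 0.0175) and was at 0 to 4.3 in LA. When one array was missing, the adjusted p went up to 0.0910 for Hspb7. The call ended without either CLA 24 h pool. Without either CLA 12 h pool the log2 change lay between 2.41 and 4.80 for Hspb7. Among the other settings, calls were lost under an offset of 4 (Hspb7, 0.0535).

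Among the falls, Fgf13, an intracellular relative of the fibroblast growth factors, read 3816 and 1674 in the 12 h pools and 475 and 296 in the 24 h pools and changed by -2.70 ± 0.41 (adjusted p = 0.00762). Mmab, which makes the cobalamin cofactor of Mmut, read 332 and 385 in the 12 h pools and 112 and 28.9 in the 24 h pools (-2.30 ± 0.43, adjusted p = 0.0165). Acsf3, a mitochondrial malonyl-CoA synthetase, changed by -2.08 ± 0.54 (adjusted p = 0.0489), with uneven late pools at 153 and 39.4. Gpt, the cytosolic alanine aminotransferase, read 3965 and 3467 in the 12 h pools and 977 and 838 in the 24 h pools (-2.02 ± 0.17, adjusted p = 0.00112), while its dim second probe set had a change of 1.35 that did not pass (adjusted p = 0.411). Aldh1l1, which oxidises a formyl folate, changed by -1.97 ± 0.28 (adjusted p = 0.00664), and its dim probe set had a change of 0.97 (adjusted p = 0.202). The mean of the probe sets was -0.33 for Gpt and -0.50 for Aldh1l1. Usp2, a deubiquitinase under clock control, read 464 and 607 in the 12 h pools and 140.4 and 90.5 in the 24 h pools (-2.08 ± 0.30, adjusted p = 0.00692), and its LA pools went from 545 and 490.5 to 189 and 202. Tlcd2 went from 3087 and 5616 to 1088 and 747, and Mfsd3 from 445 and 493 to 36.2 and 0, with adjusted p of 0.00713 and 0.00302. Leaving out one array at a time took the adjusted p up to 0.0614 for Fgf13, 0.0771 for Mmab, 0.223 for Acsf3, 0.0522 for Aldh1l1, 0.0542 for Usp2 and 0.0566 for Tlcd2. Each of them missed the threshold in at least 1 of the fits without either LA 4 h pool, either CLA 12 h pool, replicate 2 of CLA 24 h, either LA 12 h pool or either LA 24 h pool. Without either CLA 12 h pool the log2 change lay between -3.29 and -2.11 for Fgf13. Without either CLA 24 h pool the log2 change lay between -3.06 and -1.54 for Mmab, between -2.89 and -1.28 for Acsf3 and between -4.92 and -3.21 for Mfsd3. The threshold was also missed under no scaling (Acsf3, 0.0635), no filter (Acsf3, 0.0861), an offset of 4 (Acsf3, 0.0579), the mean of probe sets (Fgf13, Acsf3, Gpt and Aldh1l1, up to 0.720), the 8 arrays of 12 and 24 h alone (Acsf3, 0.0588) and the Actb covariate (Acsf3, 0.0742).

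Of 11 endothelial markers 1 rose (9.09% against a background of 4.97%). It was Cldn5, a tight junction protein, which went from 1088 and 1165 to 3005 and 2924 (1.38 ± 0.30, adjusted p = 0.0288) and in LA from 770.0 and 679.5 to 1510.5 and 2821. Of 9 liver markers none passed by the adjusted p, and 1 was higher at an unadjusted p below 0.05. That one, Ttr, transthyretin, went from 33.9 and 162 to 384 and 835 in CLA and from 392.4 and 829 to 3428 and 1890.1 in LA, on the brightest of its 4 probe sets. In the fit over all probe sets, 2 of its dimmer ones passed, with log2 changes of 3.49 (adjusted p = 0.0270) and 3.05 (adjusted p = 0.0451). With the mean of probe sets, 1 liver marker was higher by the adjusted p. Slc4a1, the anion exchanger of red blood cells, had a change of -0.15 (adjusted p = 0.863). No marker of pancreas (2 tested), mesothelium (10), fibroblasts and preadipocytes (9) or red blood cells (3) passed by the adjusted p. At an unadjusted p below 0.05 the lower ones numbered 2, 0, 1 and 0, and the higher ones 0, 0, 2 and 0. With an array withheld, the adjusted p reached 0.140 for Cldn5. The call ended without either CLA 12 h pool or either CLA 24 h pool.

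The time change itself was then compared between the diets. In 164 genes it was more positive in CLA than in LA (1.3% of genes) and in 126 more negative (0.998%). When the arrays were not scaled, these counts were 104 and 8, so that 92.9% of the calls were on the positive side against 56.6% with scaling. Leaving out single arrays moved them between 23 and 357 and between 3 and 280, with the lowest counts without replicate 2 of CLA 24 h and without replicate 1 of CLA 12 h and the highest without either CLA 4 h pool. Of the 628 genes that rose in CLA, 155 (24.7%) were among the former, and of the 590 that fell, 121 (20.5%) were among the latter. For 48 of the 628 (7.64%) and 48 of the 590 (8.14%) the LA change had the same direction and a size over 0.5 of the CLA change. Among all genes this held for 3681 (29.2%). Both sets were chosen by their CLA change, the divisor of that ratio, so their lower shares are no measure of a diet difference. As examples, the time change was more negative in CLA for 8 of 20 fatty acid synthesis genes and 5 of 19 citric acid cycle genes. It was more positive for 6 of 23 cytokines and receptors and 5 of 13 matricellular genes. Of 23 immediate early genes it was more positive for 5 and more negative for 1. None of 10 triglyceride assembly genes, 23 adipocyte markers or 19 clock genes passed for this difference.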

How the data were processed

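Mouse white fat RNA was hybridised to 1-colour Affymetrix arrays, 12 in all, each of a pool of 5 mice. The values used were the deposited intensities of the series value table, which hold 45101 probe sets, 64 of them controls. How the probes of a set were summarised is not given in the sources used here. The 3 deposited tables of ratios were not used. Each array was scaled to a mean of 500, trimmed by 2% at each end, values below 0 were set to 0, an offset of 16 was added and log2 taken. Probe sets reaching 100 on 2 or more arrays were retained, 26016 in number. Gene symbols were taken from the annotation of the array platform: 34958 probe sets had 1 symbol, 932 several and 9211 none, and the brightest probe set stood for each of 12627 genes. limma 3.58.1 in R 4.3.3 was fitted to all 6 groups (6 residual degrees of freedom and 2.15 prior ones), with contrasts for CLA, for LA and for their difference, and p-values were adjusted by Benjamini-Hochberg over all genes. Genes were named when they were among the 15 largest changes in a direction, among the 5 largest passing members of a list in a direction, among the 2 largest of a list with none passing, on a short list of metabolic and inflammatory genes, or among the 10 largest differences between the diets in a direction. Some named by the last part are described only in the closing section. The members and lists were chosen with earlier results of these data known. The number of arrays limits the precision, and no paper or label says that pools were separate experiments beyond their mice, so p-values measure the spread between pools. Promoter windows were read from RefSeq's GRCm38.p6, in which 156 of 203 named genes had one. The pipeline was tested on simulated data. Alternatives changed the scaling, the filter, the offset, the probe set rule, the arrays in the fit, the prior variance, a replicate block, an RNA quality covariate and single arrays.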

Additional observations from a re-analysis of the deposited data

Results flagged for a closer look

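The change from 12 to 24 h differed between the diets by an interaction test in limma, fitted to all 12 arrays and adjusted by Benjamini-Hochberg, for each of the genes below. The values are the CLA change minus the LA change on the log2 scale, with 2 pools per diet and time. The adjusted p of that test ran from 2.89e-06 for Slfn4 to 0.0483 for D930003E18Rik. Others near the threshold were Sprr1a (0.0413), Ptx3 (0.0402), Ccl2 (0.0389) and Clcf1 (0.0373). Positive differences were 6.22 for Slfn4, 6.08 for Hoxc9, 6.05 for Clcf1, 5.86 for S100a9, 5.59 for Cxcl3 and 5.55 for Chil3. Further ones were 4.75 for Il6, 4.65 for Sprr1a, 4.38 for H2-Q5, 4.04 for Dusp5, 3.40 for Cxcl2, 2.42 for Ptx3 and 1.99 for Ccl2. Slfn4, Clcf1, S100a9, Cxcl3, Il6, Sprr1a, H2-Q5 and Dusp5 had both early CLA pools under 100, so these sizes depend on the offset and have no order, and Cxcl2 had all 4 LA pools under 100. For Hoxc9, a developmental transcription factor, the LA change was the larger and all CLA pools were under 100: they were at 0 and 0, then 69.1 and 80 in CLA, and the LA pools at 287 and 312, then 27.2 and 0 in LA. H2-Q5, a class I histocompatibility gene, was at 0 and 15.2 and then 141 and 137 in CLA. Dusp5, a phosphatase that acts on ERK, was at 0 in every pool of 12 and 24 h except the late CLA pools, which read 186 and 325. Values below 0 had been set to 0, so the pools at 0 show no spread. The CLA calls of Hoxc9, H2-Q5 and Dusp5 ended with a prior variance following the mean level (adjusted p = 0.0951, 0.161 and 0.0854). That of Hoxc9 also ended with no filter (0.0520) and with the Actb covariate (0.0601).

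Negative differences were -1.43 for Fasn, -2.42 for Fxyd3, -2.46 for Aldh1l1 and for Gng7, -3.05 for Golga7b and -3.23 for D930003E18Rik and for Ntpcr. The others were -3.58 for Recql4, -3.60 for Slc45a2, -3.75 for Hif3a and -4.03 for Mfsd3. Hif3a, a member of the hypoxia-inducible factor family, was at 205 and 178 and then 6.4 and 0 in CLA and between 134 and 219 in LA on its brightest probe set, while a second one had a CLA change of -0.03 (adjusted p = 0.974). Ntpcr, a nucleoside triphosphatase, moved mostly in LA, from 121 and 52.1 to 553 and 479.7, and its CLA change of -0.77 did not pass (adjusted p = 0.160). Hif3a, Mfsd3, Recql4, D930003E18Rik, Gng7, Golga7b, Slc45a2 and Fxyd3 had both late CLA pools under 100, where a level is only bounded and the size of the difference depends on the offset, and Fxyd3 was under 100 in all 4 CLA pools. The CLA call of D930003E18Rik ended with no filter (adjusted p = 0.0552), an offset of 4 (0.0651), 8 arrays (0.0640) and the Actb covariate (0.0752). With 2 pools a group, no pool could be tested for standing apart from the others.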

How the results depend on the processing

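Of the 203 named genes 164 passed, and 67 of these passed without each array in turn; none of the 164 changed sign under any alternative tried. Counts are given as higher and lower, and the cause of a moved count was not tested. Without scaling, CLA gave 282 and 210, LA 0 and 1, and the difference between the diets 104 and 8. For that difference, requiring 200 in place of 100 gave 406 and 314, an offset of 64 gave 297 and 197, averaging all probe sets of a gene 96 and 73, and a prior variance following the mean level 500 and 489, with 882 and 933 in CLA and 7 and 3 in LA. No filter gave 3 and 3 in LA. LA gave 0 and 0 with the minimum of 200, with an offset of 4 or 64, on 8 arrays and with the Actb ratio as covariate, and 0 and 1 after quantile normalization. The 4 CLA arrays alone gave 80 and 34. With single arrays left out, CLA gave 127 to 803 and 125 to 824, LA 0 to 3 and 0 to 0, and the difference 23 to 357 and 3 to 280. Genes that did not pass and changed sign were Ppp1r3c (-0.034 after quantile normalization), Pnpla3 (0.0051) and Atf3 (0.065) with the Actb covariate. Over the same omissions Kit ranged from -0.0670 to 2.58, Srebf1 from -0.24 to 0.52, Atf3 from -0.16 to 0.11, Ppp1r3c from -0.11 to 0.22, Pnpla3 from -0.57 to 0.11 and Slc4a1 from -0.42 to 0.12. Same-numbered pools deviated with correlations from -0.40 to 0.38 between groups, and 0.24 between CLA 12 h and CLA 24 h. The negative ones all involved LA 24 h. The main fit did not pair pools by number, and whether the numbers pair them was not tested. A replicate block gave 660 and 624 in CLA, 0 and 1 in LA, and 163 and 130 for the difference. Dim probe sets and the 2 pools per group limit every value.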
